A study of Homo sapiens with 8 samples.

Results

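The core of the spliceosome was followed through 59 genes, out of the 60675 listed in the count tables, that were chosen by symbol for what their products do in the splicing machinery. They were sorted into 11 classes by complex: the Sm ring, the SF3A and SF3B complexes, the proteins specific to the U1, U2, U5, U4/U6 and U11/U12 particles, the LSM ring, the PRP19 group and the DEAH helicases. Each symbol matched a single Ensembl identifier and all 59 genes passed the filter on low counts, so the counts below cover the full list. The rule that lists them uses no expression value, but the genes were chosen with earlier results of these data known. Where 4 pairs of library values follow one another below, they stand in the order parental untreated, parental indisulam, resistant untreated, resistant indisulam.

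RNA was sequenced from Panc10.05, a pancreatic cancer cell line of human origin in common use, and from a line derived from it by acquired resistance to indisulam, a sulfonamide that acts as a molecular glue between DCAF15, a ubiquitin ligase receptor, and RBM39, a splicing factor that is then degraded. The 8 libraries formed 4 groups of 2. Parental untreated cells received no drug, and parental indisulam cells received 2 µM for 18 h. Resistant indisulam cells were, per the study, cultured continuously on 2 µM of the drug, and resistant untreated cells were the same line after a drug holiday, so the treatment times of the lines differ. The growth and treatment notes of the samples name A549 although titles and cell line field name Panc10.05, which was followed here. Libraries of the same group are technical replicates in the study's words, so p-values measure the spread between these libraries only, and the resistant cells stand for 1 selected line.

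Splicing removes introns from pre-mRNA in a cycle of particles made of small nuclear RNA and protein (snRNPs). U1 binds the 5′ splice site and U2, through SF3A and SF3B, the branch point. The U4/U6.U5 tri-snRNP then joins, and helicases remodel the assembly into its active form with the PRP19 group before they take it apart. The Sm ring sits on U1, U2, U4 and U5, and the LSM2 to LSM8 ring on U6. A minor spliceosome with U11 and U12 handles a small class of introns.

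Each library held between 65266253 and 108002436 reads assigned to genes, and the 59 genes together took 0.830% of them in both parental libraries without drug and 0.905% and 0.916% with it, and 0.849% and 0.840% without drug and 0.859% and 0.856% with it in the resistant line. Libraries of a group differed over these genes by a median of 0.019 to 0.047 log2 units. Ductal keratins and EPCAM were high in every library (KRT8 at 2333 to 4960 CPM, the count scaled to a common library total), and ductal MUC1 was lower (3.8 to 19.7 CPM). Islet hormones and the fibroblast genes DCN and LUM had no read, but fibroblast COL1A1 had 1.3 to 4.1 CPM. Acinar PRSS1 had at most 4 reads. Of the lung markers NKX2-1 and SFTPB had none, SFTPC had at most 1 read and NAPSA at most 21. The mRNA of RBM39, the protein target, was higher with the drug in parental (log2 fold change 1.11 ± 0.03 SE) and resistant cells (0.94 ± 0.03). A pair of library measures moved with the groups: mitochondrial reads were 4.19% and 4.33% in untreated against 2.61% and 2.24% in treated parental libraries, and 3.0% and 3.45% against 3.84% and 3.52% in the resistant pairs, and reads outside genes were lowest, at 4.43% to 5.11%, in parental indisulam and resistant untreated libraries. Reads marked as duplicates were not counted, at 19.5% and 20.7% in parental indisulam and 15.9% and 16.7% in resistant indisulam libraries. Untreated libraries had 19.4% and 17.3% in parental and 17.4% and 15.4% in resistant cells. The part of these measures in the results was not tested.

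Levels between genes were compared per kilobase of the Ensembl canonical transcript, as the mean CPM (scaled with TMM, which sets the bulk of genes level between libraries) of the parental untreated libraries. The most abundant transcripts came from genes of small Sm proteins and of the U1 protein SNRPC: SNRPD2 at 428 CPM per kb, SNRPF at 254, SNRPC at 231, SNRPB at 219 and SNRPG at 178. By class, the Sm ring had the highest median (178 CPM per kb, range 19.0 to 428) and the U11/U12 proteins the lowest (9.15, range 5.42 to 36.0). PRPF18, which acts at the second catalytic step, was the scarcest at 2.06 CPM per kb, and its total of 3.4 to 5.0 CPM gave the widest errors of the list. LSM8 was listed at 4.63 CPM per kb because its canonical model is 12384 bases long, whereas its raw level of 57.3 CPM lay within the range of the other LSM genes. Model length also entered the Sm ring values. SNRPD1 and SNRPD3, with models of 4858 and 3466 bases, had 22.5 and 19.0 CPM per kb from 109 and 65.8 CPM. SNRPF had 254 CPM per kb from 115 CPM over 452 bases.

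**Figure D1:**
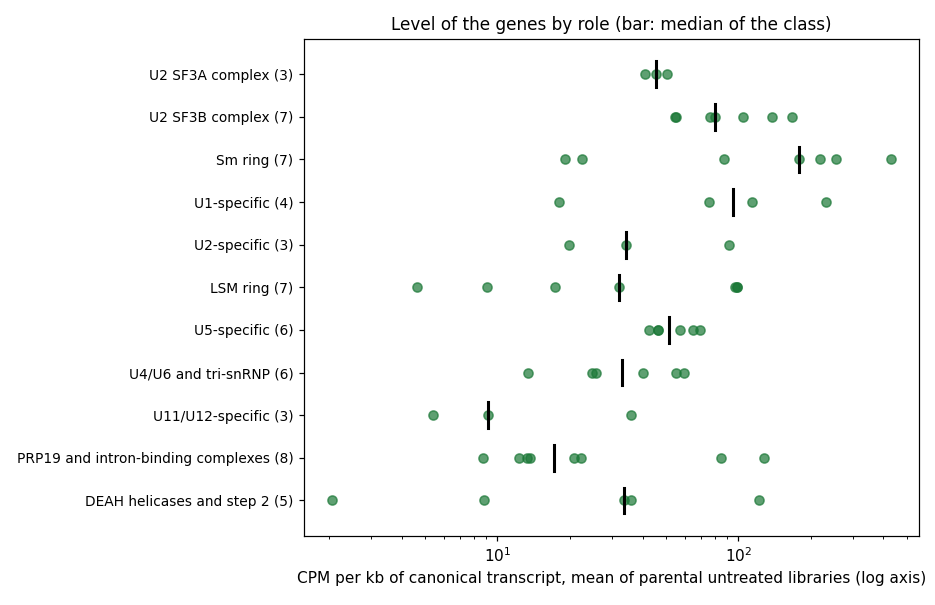
Level of the 59 genes in parental untreated cells by class (number of genes in brackets), as CPM per kb of canonical transcript on a log axis, mean of 2 libraries per point. Bars mark class medians, from 9.15 for U11/U12 proteins to 178 for the Sm ring.

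Of the 59 genes, 52 had a promoter window (250 bases before to 50 after the start) in the RefSeq table for GRCh38.p14. The letters CCGGAAGT, an octamer bound by ETS factors, stood on either strand in the windows of 17 of these 52 (32.7%), against 4.95% of the windows of 27305 genes and 10.2% of those of 10162 tested protein-coding genes. The CCAAT box (CCAAT) was in 44.2% of the members' windows and 43.6% of those of tested coding genes, TATAAA in 3.85% and 8.45%, searched on both strands. A match is a description of letters and not of binding. The 120 bases before the start are shown for 4 genes of different complexes that hold the octamer in the printed strand, with the octamer in capitals, to show how its position varies: it begins 41 bases before the start in SNRPB (chr20:2470790-2470909, minus strand), 49 in SF3A1 (chr22:30356895-30357014, minus), 53 in SF3B2 (chr11:66052244-66052363, plus) and 106 in PRPF6 (chr20:63981012-63981131, plus).
SNRPB: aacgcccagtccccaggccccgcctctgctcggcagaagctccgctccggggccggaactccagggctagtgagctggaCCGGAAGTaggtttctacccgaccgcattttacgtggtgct
SF3A1: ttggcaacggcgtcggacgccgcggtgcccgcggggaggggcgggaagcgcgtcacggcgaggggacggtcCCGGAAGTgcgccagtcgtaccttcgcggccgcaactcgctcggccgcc
SF3B2: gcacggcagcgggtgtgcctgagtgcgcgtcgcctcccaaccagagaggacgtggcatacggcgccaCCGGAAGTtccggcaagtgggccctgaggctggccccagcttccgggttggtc
PRPF6: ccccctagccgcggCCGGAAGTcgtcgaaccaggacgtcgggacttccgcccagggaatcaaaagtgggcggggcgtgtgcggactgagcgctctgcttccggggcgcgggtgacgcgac

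The response of parental cells to 18 h of indisulam was a shallow rise across nearly every complex. Of 59 genes, 46 rose and 4 fell at an adjusted p under 0.05 (edgeR quasi-likelihood test, Benjamini-Hochberg over 16661 genes), against 58.2% of all tested genes called (31.6% higher, 26.6% lower). The median log2 fold change was 0.19 (range -0.24 to 0.56) and that of all tested genes 0.01. Abundant genes as a whole leaned the same way: among 2770 tested genes within the interquartile level of the 59, 57.7% were called higher and 20.9% lower, with a median of 0.11. The changes were small, and no gene was called in a test against 0.5 log2 units. Only PRPF39 and CDC5L passed that size. Of all tested genes 15.8% were called and did so, and of the 2770 within the level range 3.21%. Scaling by library totals alone turned the count to 39 higher and 9 lower.

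In resistant cells more of the genes fell than rose: 10 of 59 genes were higher and 27 lower with the drug, against 24.9% and 25.8% of all tested genes (50.7% called in all), with a median of -0.05 (range -0.29 to 0.35) and no member past 0.5 log2 units (13.8% of all tested genes were called and past it). Within the same level range, 27.1% of 2770 genes were higher, 40.3% were lower and 4.12% were past 0.5 log2 units. With library totals alone the split was 16 higher and 19 lower, and with genes of a mean CPM of at least 1 it was 15 and 24, so the size of the excess of lower genes depended on scaling and filter. Set side by side, 9 genes rose in both lines, 17 rose in parental cells and were not called in resistant cells, and 20 rose in parental and fell in resistant cells. These classes held 11.9%, 11.9% and 7.78% of all tested genes, and 21.3%, 19.6% and 16.8% of the 2770 within the level range. The 9 were CDC5L, DHX15, PRPF3, PRPF6, PRPF8, SF3B1, SF3B4, SNRNP27 and SYF2. There was no gene with a parental fall and a resistant rise (3.43% of all tested genes), and LSM4 and PRPF31 were called in neither line (24.8% of all tested genes).

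The difference of the responses was tested directly as an interaction. It was called for 49 of 59 genes, 46 of them with a lower value in resistant cells and 3 with a higher one, against 50.1% of all tested genes (27.5% lower, 22.7% higher). The median was -0.24 (range -0.62 to 0.20), and within the level range of the 59 genes 54.0% of genes were lower and 14.4% higher, with a median of -0.13. Library totals alone gave 31 lower and 4 higher, while the median of all tested genes moved to 0.13. Line, treatment time and the drug holiday of the resistant cells cannot be told apart in the interaction.

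**Figure D2:**
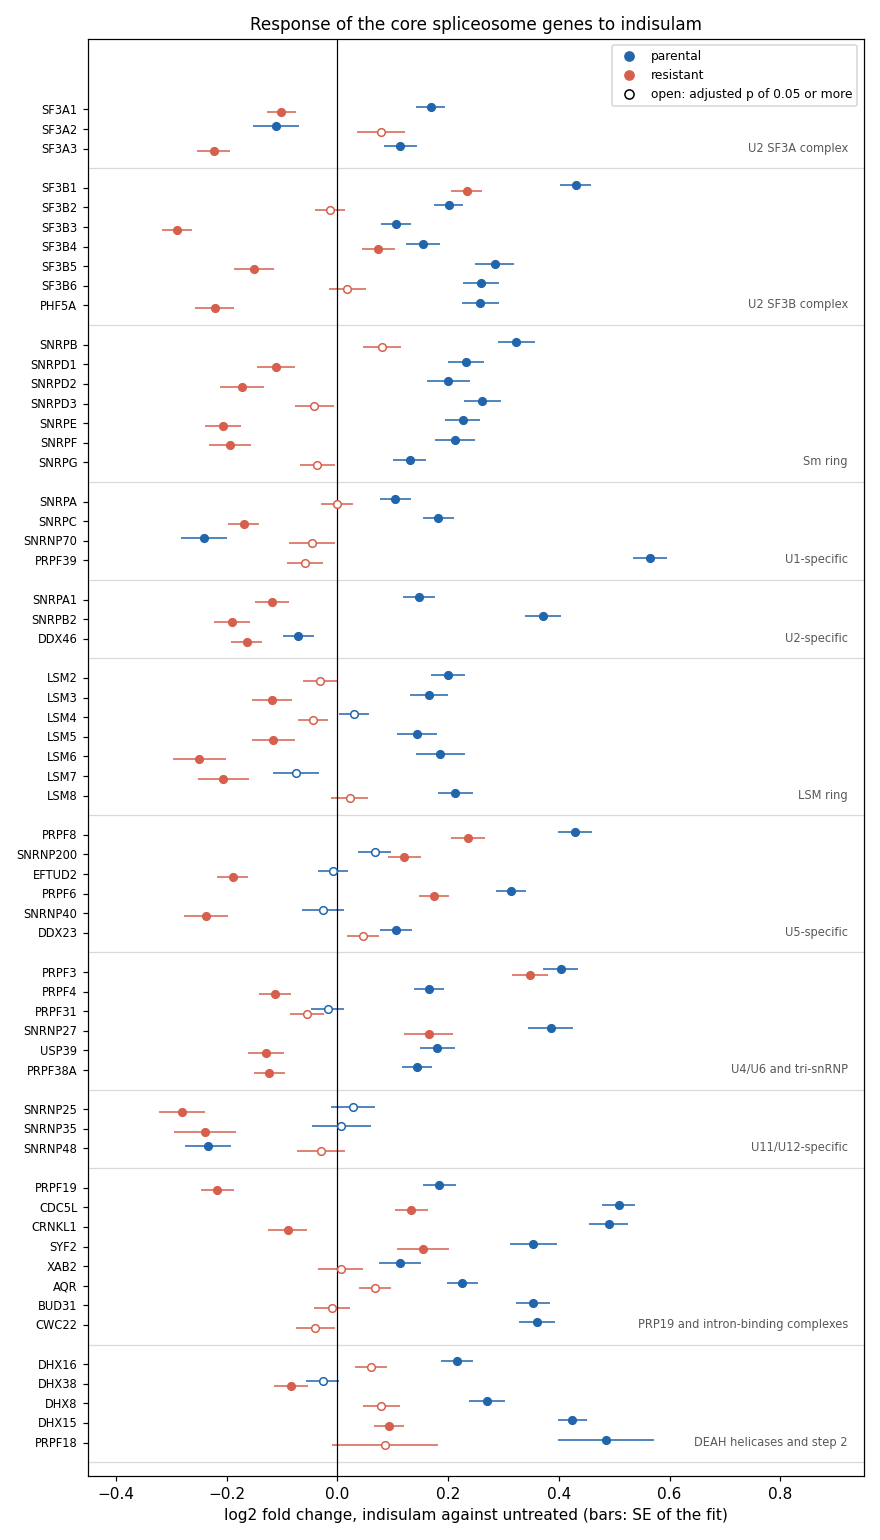
Log2 fold change of each gene with indisulam against untreated in parental (blue) and resistant cells (red), by class, with the SE of the edgeR fit; filled points have an adjusted p under 0.05. Parental points lie to the right of 0 for 46 called genes, and resistant points are called to the left for 27 and to the right for 10.

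Among proteins of the Sm ring, which all major snRNPs but U6 carry, all 7 genes rose in parental cells (0.13 to 0.32) and 4 of 7 fell in resistant cells (SNRPD1, SNRPD2, SNRPE and SNRPF, -0.21 to -0.11), and the interaction was called lower for all 7. SNRPB, which encodes the SmB/B′ proteins, stood at 234 and 239 CPM in untreated and 301 and 291 in treated parental libraries, and 230 and 232 in untreated and 255 and 234 in treated resistant libraries. Only the parental indisulam libraries were set apart, above all the others. The parental rise was 0.32 ± 0.03 (adjusted p = 5.58e-08) and the resistant value 0.08 ± 0.03 (adjusted p = 0.053), which was called when either parental indisulam library (0.08 each) or the second resistant indisulam library (0.14) was left out. SNRPN, a gene with a near-identical protein, had no counted read in any library. Counting rules for overlapping genes were not given, so this need not mean absence.

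U1 recognises the 5′ splice site, and its proteins did not move as a block: SNRPA and SNRPC rose in parental cells (0.10 and 0.18), PRPF39 rose most of all genes listed and SNRNP70 fell. PRPF39, the homologue of a yeast U1 protein, stood at 62.9 and 63.9 CPM in untreated and 94.6 and 93.0 in treated parental libraries, and 57.2 and 58.96 in untreated and 55.3 and 56.2 in treated resistant libraries. The parental indisulam libraries lay far above the other 6, which was a 1.48-fold rise (log2 0.56 ± 0.03, adjusted p = 6.03e-13), against -0.06 ± 0.03 in resistant cells (adjusted p = 0.139) and an interaction of -0.62 ± 0.04 (adjusted p = 1.72e-10), the only one past 0.5 log2 units in the test against that size. Its exons overlap the more abundant FKBP3 on the other strand, which had 66.3% of the pair's reads and a parental value of 0.01 ± 0.03, and the strand setting of the counting was not given.

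SNRNP70 encodes U1-70K, the protein that grips U1 stem-loop I. It had 191 and 190 CPM in untreated and 166 and 156 in treated parental libraries, and 184 and 202 in untreated and 192 and 182 in treated resistant libraries. The 2 parental indisulam libraries were the lowest of the 8, and the other groups overlapped. The fall was -0.24 ± 0.04 (adjusted p = 0.000209) and the resistant value -0.05 ± 0.04 (adjusted p = 0.392), which was called without the first resistant untreated library (-0.11). On the drug SNRNP70 was higher in resistant cells (0.21 ± 0.04, adjusted p = 0.000434) with an interaction of 0.19 ± 0.06 (adjusted p = 0.0142), and both turned sign after correction for GC content and length (-0.07 and -0.04).

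The SF3B complex holds the branch-point adenosine, and SF3B1 is its large scaffold, recurrently mutated in some cancers. All 7 SF3B genes rose in parental cells (0.11 to 0.43), while in resistant cells SF3B1 and SF3B4 rose, SF3B3, SF3B5 and PHF5A fell and SF3B2 and SF3B6 were not called. SF3B1 stood at 354 and 355 CPM in untreated and 469 and 485 in treated parental libraries, and 360 and 355 in untreated and 420 and 420 in treated resistant libraries. Both treated groups lay above both untreated groups without overlap, with a rise of 0.43 ± 0.03 in parental (adjusted p = 7.76e-12) and 0.23 ± 0.03 in resistant cells (adjusted p = 1.69e-07). The interaction was -0.20 ± 0.04 (adjusted p = 0.00018), but -0.01 and not called after the GC and length correction.

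Partners of SF3B1 within the same complex went another way in resistant cells. SF3B3, a scaffold of beta-propellers, stood at 530 and 533 CPM in untreated and 565 and 579 in treated parental libraries, and 668 and 656 in untreated and 544 and 540.5 in treated resistant libraries. The resistant untreated libraries were the highest, and the drug value was -0.29 ± 0.03 in resistant cells (adjusted p = 5.03e-09) against 0.11 ± 0.03 in parental cells (adjusted p = 0.00183). PHF5A, a small zinc-finger subunit at the branch-point pocket, had 80.3 and 80.4, 94.2 and 98.0, 82.9 and 77.5, and 70.1 and 67.8 CPM in the same order, with an interaction of -0.48 ± 0.05 (adjusted p = 3.5e-08). Parental indisulam was its highest group and resistant indisulam its lowest.

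In SF3A, the partner complex that joins SF3B to U2, SF3A1 and SF3A3 rose in parental cells (0.17 and 0.11) and fell in resistant cells (-0.10 and -0.22). SF3A2 had 74.0 and 73.3 CPM in untreated and 70.9 and 65.6 in treated parental libraries, and 55.2 and 60.9 in untreated and 61.5 and 61.1 in treated resistant libraries. The lines separated, and the parental fall was small: -0.11 ± 0.04 (adjusted p = 0.0298), not called without either parental untreated library (-0.10 and -0.12) or the second parental indisulam library (-0.08). Its interaction was 0.19 ± 0.06 (adjusted p = 0.0139), and correcting for GC content and length turned both (0.05 and -0.09). PLEKHJ1, which overlaps it on the other strand with 41.1% of the pair's reads, had a parental value of -0.28 ± 0.03.

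The U2-specific genes comprised SNRPA1 and SNRPB2, the U2-A′ and U2-B″ proteins bound to U2 stem-loop IV, and the helicase gene DDX46, which helps U2 engage the branch point. SNRPB2 stood at 47.9 and 47.7 CPM in untreated and 61.0 and 62.6 in treated parental libraries, and 79.8 and 76.3 in untreated and 68.6 and 68.3 in treated resistant libraries. No groups overlapped. It rose by 0.37 ± 0.03 in parental cells (adjusted p = 1.75e-09), had a value of -0.19 ± 0.03 in resistant cells (adjusted p = 2.98e-05) and an interaction of -0.56 ± 0.05 (adjusted p = 1.62e-09). SNRPA1, its partner, moved likewise on a smaller scale (0.15, -0.12 and -0.27). DDX46 was the single gene lower with the drug in both lines, as were 10.5% of all tested genes, with 195 and 194 CPM in untreated and 183 and 187 in treated parental libraries, and 207 and 209 in untreated and 182 and 190 in treated resistant libraries. Its parental value of -0.07 ± 0.03 (adjusted p = 0.035) was not called without either parental untreated library (-0.07 each) or the first parental indisulam library (-0.08), and the resistant value was -0.16 ± 0.03 (adjusted p = 3.92e-05). C5orf24, which overlaps it on the same strand with 30.7% of the pair's reads, had a parental value of 0.33.

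U5 carries PRPF8, the protein at the catalytic centre, and the helicase and GTPase that drive activation. PRPF8 had 411 and 421 CPM in untreated and 544 and 577 in treated parental libraries, and 469 and 462 in untreated and 559 and 537 in treated resistant libraries. Treated libraries lay above untreated ones in both lines, and the 2 treated groups overlapped. The rise was 0.43 ± 0.03 in parental (adjusted p = 6.46e-11) and 0.24 ± 0.03 in resistant cells (adjusted p = 8.27e-07). PRPF6, which bridges U5 to U4/U6, rose by 0.31 ± 0.03 and 0.17 ± 0.03 with library values of 199 and 198, 245 and 248, 227 and 228, and 260 and 253 CPM in the same group order (adjusted p = 1.27e-09 and 1.05e-05).

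Of the other U5 genes, DDX23 rose by 0.11 in parental cells, and SNRNP200, EFTUD2 and SNRNP40 were not called there. SNRNP200, the helicase that unwinds U4 from U6, had 498 and 497 CPM in untreated and 506.5 and 536 in treated parental libraries, and 552 and 550 in untreated and 608 and 590 in treated resistant libraries. It rose only by the resistant test (0.12 ± 0.03, adjusted p = 0.00148), since the parental value of 0.07 ± 0.03 missed the threshold (adjusted p = 0.0541) and was called without the first parental indisulam library (0.09). The interaction of 0.05 ± 0.04 was not called (adjusted p = 0.304), except without the second parental indisulam library (0.11), so the lines were not shown to differ. EFTUD2, the U5 GTPase, stood at 200 and 201, 197 and 201, 228 and 222, and 199 and 196 CPM in the same order. Its resistant untreated libraries were the highest of the 8, and it fell in resistant cells by 0.19 on the log2 scale (SE 0.03, adjusted p = 4.72e-06) with a parental value of -0.01 ± 0.03 (adjusted p = 0.83).

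Of the U4/U6 and tri-snRNP proteins, 5 of 6 rose in parental cells. PRPF3, a U4/U6 protein linked to inherited retinal degeneration, had 59.5 and 59.9 CPM in untreated and 77.6 and 80.2 in treated parental libraries, and 58.4 and 59.7 in untreated and 75.1 and 75.1 in treated resistant libraries. The 2 treated groups were high and the 2 untreated groups low. It had the largest rise of the list in resistant cells, 0.35 ± 0.03 (adjusted p = 3.12e-09), next to 0.40 ± 0.03 in parental cells (adjusted p = 1.88e-10), and its interaction of -0.05 ± 0.04 was not called (adjusted p = 0.318). SNRNP27 also rose in both lines (0.38 and 0.16), with MXD1, which overlaps it on the same strand, holding 51.2% of the pair's reads at a parental value of -0.02. PRPF4, the direct partner of PRPF3, did not follow it: 173 and 173, 193 and 195, 105 and 105, and 95.9 and 98.1 CPM, with 0.17 ± 0.03 in parental and -0.11 ± 0.03 in resistant cells (adjusted p = 1.37e-05 and 0.00224).

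The LSM ring, which holds the 3′ end of U6, rose in part in parental cells (LSM2, LSM3, LSM5, LSM6 and LSM8, 0.14 to 0.21) and in 4 of 7 genes fell in resistant cells. LSM6 had 19.6 and 20.5 CPM in untreated and 22.0 and 23.6 in treated parental libraries, and 22.2 and 21.4 in untreated and 17.8 and 18.7 in treated resistant libraries. Resistant indisulam was the lowest group (-0.25 ± 0.05 in resistant cells, adjusted p = 0.000128). LSM8, the subunit that sets the nuclear ring apart from the cytoplasmic one, had 56.7 and 58.0, 65.9 and 66.9, 42.4 and 42.9, and 43.4 and 43.2 CPM in the same order, so both resistant groups were low. Its parental rise of 0.21 ± 0.03 (adjusted p = 3.45e-06) and interaction of -0.19 ± 0.05 (adjusted p = 0.00145) turned sign at -0.0003 and 0.01 under the GC and length correction.

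The PRP19 group stabilises the active site and binds the intron, and all 8 of its genes rose in parental cells, with a median of 0.35. CDC5L, a core member of the complex, had 128 and 131 CPM in untreated and 182 and 186 in treated parental libraries, and 142 and 137 in untreated and 151 and 156 in treated resistant libraries. No groups overlapped, and the rise was 1.42-fold in parental cells (0.51 ± 0.03, adjusted p = 1.75e-12) against 0.13 ± 0.03 in resistant cells (adjusted p = 0.000634). CRNKL1, a scaffold of tetratricopeptide-like repeats, had 34.2 and 35.4, 48.2 and 49.6, 54.6 and 52.6, and 50.2 and 50.6 CPM in the same order. Parental untreated cells were the low group, with 0.49 ± 0.04 in parental (adjusted p = 6.42e-11), -0.09 ± 0.03 in resistant cells (adjusted p = 0.036) and an interaction of -0.58 ± 0.05 (adjusted p = 3.08e-09).

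PRPF19, the ubiquitin ligase that names the complex, had 297 and 298 CPM in untreated and 331 and 345 in treated parental libraries, and 340.5 and 330 in untreated and 293 and 284 in treated resistant libraries. Parental treated and resistant untreated libraries overlapped at the top, and the values with drug were 0.18 ± 0.03 and -0.22 ± 0.03 (adjusted p = 9.59e-06 and 1.5e-06). In the same group CWC22, which places the exon junction complex, and BUD31 rose in parental cells (0.36 and 0.35) and were not called in resistant cells (-0.04 and -0.01). SYF2 rose in both lines (0.35 and 0.15).

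Of the DEAH helicases that remodel and release the spliceosome, DHX8, DHX15 and DHX16 rose in parental cells and DHX38 was not called (-0.03), and DHX8 overlaps ETV4 on the other strand (48.2% of the pair's reads, parental value 0.03). DHX15, which disassembles the lariat complex, rose by 0.42 ± 0.03 in parental and 0.09 ± 0.03 in resistant cells (adjusted p = 6.19e-12 and 0.00543). PRPF18 had 3.5 and 3.4 CPM in untreated and 4.6 and 5.0 in treated parental libraries, and 3.4 and 3.4 in untreated and 3.4 and 3.8 in treated resistant libraries. Only the parental indisulam libraries were raised (0.49 ± 0.09, adjusted p = 4.17e-05), and 47.8% of the reads of PRPF18 and its overlapping opposite-strand neighbour FRMD4A belonged to FRMD4A.

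The 3 listed U11/U12 proteins of the minor spliceosome formed the class with no gene called higher with the drug in either line. SNRNP48 had 22.6 and 22.6 CPM in untreated and 19.3 and 19.2 in treated parental libraries, and 21.0 and 22.3 in untreated and 21.2 and 21.2 in treated resistant libraries. The parental indisulam libraries were the lowest (-0.23 ± 0.04, adjusted p = 4.4e-05), with an interaction of 0.20 ± 0.06 (adjusted p = 0.00711). SNRNP25 and SNRNP35 were low in resistant indisulam cells instead: SNRNP25 had 39.3 and 39.0, 39.2 and 40.5, 41.8 and 38.4, and 34.0 and 32.2 CPM, and SNRNP35 had 13.6 and 13.4, 13.2 and 13.9, 14.6 and 13.2, and 11.5 and 12 CPM. Their resistant values were -0.28 ± 0.04 and -0.24 ± 0.06 (adjusted p = 6.48e-06 and 0.00103), and the reads of SNRNP35 share exons with RILPL1 on the other strand, which had 34.7% of the pair's reads.

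**Figure D3:**
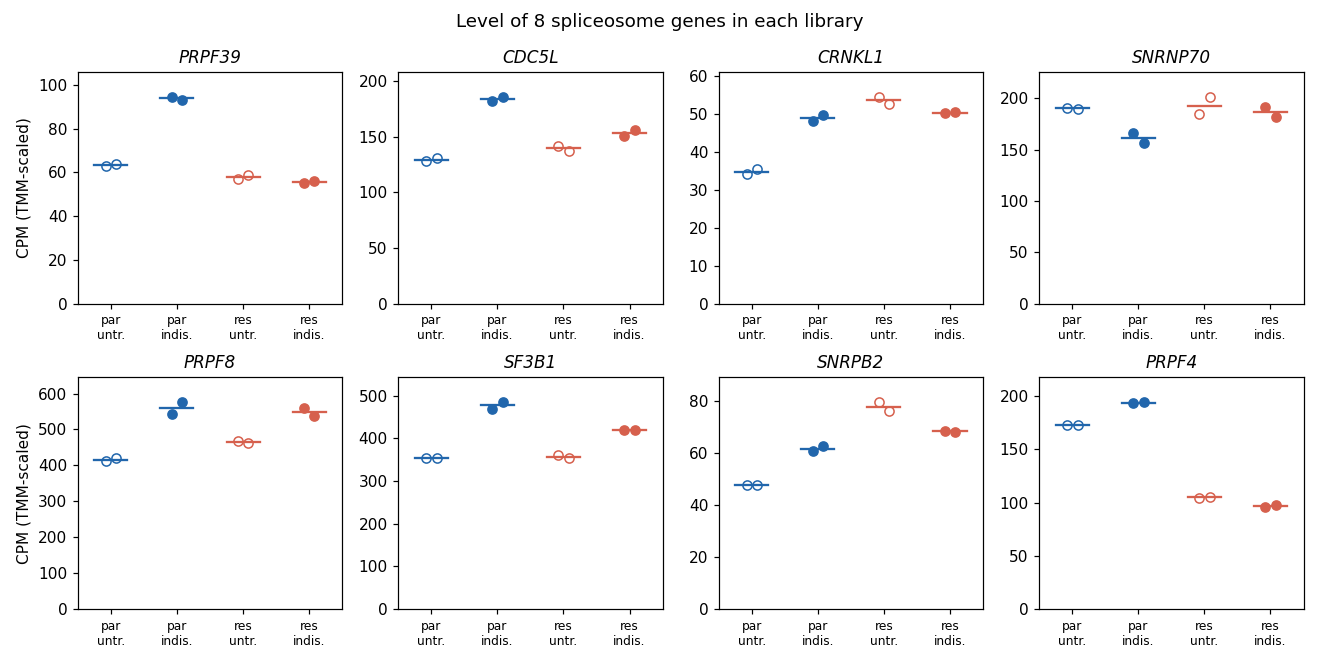
CPM (TMM-scaled) of 8 genes in each of the 8 libraries, with 2 points per group and a line at their mean; blue marks parental and red resistant cells, open untreated and filled indisulam libraries, and axes start at 0. PRPF39 is raised in parental indisulam alone, PRPF8 and SF3B1 in both treated groups, and PRPF4 is low in both resistant groups.

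Without the drug the lines differed in both directions. Resistant untreated cells had 19 genes higher and 15 lower than parental untreated cells, against 60.1% of all tested genes called (30.3% higher, 29.9% lower), with a median of -0.00 (range -0.72 to 0.71). U5 genes were higher in 5 of 6 and LSM genes lower in 4 of 7. Past 0.5 log2 units, as were 24.6% of all tested genes, were PRPF4 (0.607 times the parental level, -0.72 ± 0.03, adjusted p = 1.25e-16), SNRPB2 (1.63-fold, 0.71 ± 0.03, adjusted p = 3.11e-15) and CRNKL1 (0.62 ± 0.04, adjusted p = 1.61e-13), and all 3 were also called in the test against that size. SF3B3 and DDX23, a U5 helicase, were higher (0.32 and 0.29), and LSM7, LSM8 and XAB2 were lower (-0.49, -0.43 and -0.40). Higher values of PRPF8 and SNRNP200 (0.16 and 0.15) turned to -0.02 and -0.03 with the GC and length correction, under which 25 of the 34 calls were made again, 1 of them with the other sign.

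With the drug the balance lay on the lower side. Resistant indisulam cells had 5 genes higher and 45 lower than parental indisulam cells, against 69.5% of all tested genes called (34.6% higher, 34.9% lower), with a median of -0.23 (range -0.998 to 0.23). Within the level range of the 59 genes, 24.8% of genes were higher and 58.3% lower, with a median of -0.13. The split was 10 higher and 36 lower with library totals alone and 10 and 37 with genes of a mean CPM of at least 1. All 7 Sm genes were lower (-0.49 to -0.28), though SNRPG moved from -0.29 to 0.01 with the GC and length correction, and all 6 tri-snRNP and all 5 DEAH and step 2 genes were lower as well, of which SNRNP27 turned to 0.13 and PRPF38A to 0.02 under that correction. PRPF3, at -0.07, turned to 0.02 with library totals alone and 0.01 with a mean CPM of at least 1, without a call. Past 0.5 log2 units were 9 genes, as were 31.7% of all tested genes and 14.9% of those within the level range. The 9 were led by PRPF4 at 0.501 times the parental level (-0.998 ± 0.03, adjusted p = 2.71e-19), followed by PRPF39 (-0.75 ± 0.03), BUD31 (-0.65 ± 0.03) and LSM7 (-0.62 ± 0.04).

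Some of these differences were present with and without the drug. LSM7 had 47.6 and 49.6 CPM in untreated and 46.5 and 45.7 in treated parental libraries, and 32.7 and 36.5 in untreated and 30.5 and 29.6 in treated resistant libraries, so the resistant groups were low with and without the drug. BUD31 had 90.1 and 87.6, 111 and 116, 73.0 and 72.2, and 70.8 and 73.2 CPM, low in resistant cells and raised by the drug in parental cells. XAB2, an intron-binding scaffold, had 58.6 and 59.1, 65.0 and 62.3, 43.3 and 45.7, and 46.7 and 42.9 CPM, again low in both resistant groups. The higher genes were few: DDX23 had 150 and 151, 159 and 165, 187 and 182, and 192 and 190 CPM, above parental cells in both states (0.29 ± 0.03 and 0.23 ± 0.03, adjusted p = 3.8e-09 and 1.34e-07).

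Counted over both states, 3 genes were higher in resistant cells off and on the drug (DDX23, SNRPB2 and SNRNP200) and 15 were lower in both, against 20.4% and 19.4% of all tested genes and 19.2% and 29.6% of those within the level range. A further 22 genes, SNRPB, CWC22 and PHF5A among them, were not called off the drug and were lower on it, and 8 went from higher to lower, among them PRPF19, SF3A3 and CDC5L, against 11.1% and 4.38% of all tested genes and 18.0% and 10.7% within the level range. With the GC and length correction SNRNP200 and SF3A1 (one of the 8) turned to -0.03 and -0.04 off the drug and lost their calls. Of the 15 lower genes, under the same correction, SNRPD2 turned to 0.05 off the drug and lost its call, and SNRPG was called higher off the drug (0.20, adjusted p = 7.76e-08, edgeR) and not called on it (0.01). SF3B3, one of the 8, lost its call on the drug with library totals alone (0.01). LSM4 was called in none of the 4 comparisons between groups. By group mean, the highest of the 4 groups was parental indisulam for 39 genes and the lowest was resistant indisulam for 30. All tested genes had these orders in 32.2% and 24.3% of cases and genes within the level range in 49.1% and 34.5%. The comparisons share groups, so these counts are not independent of one another.

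**Figure D4:**
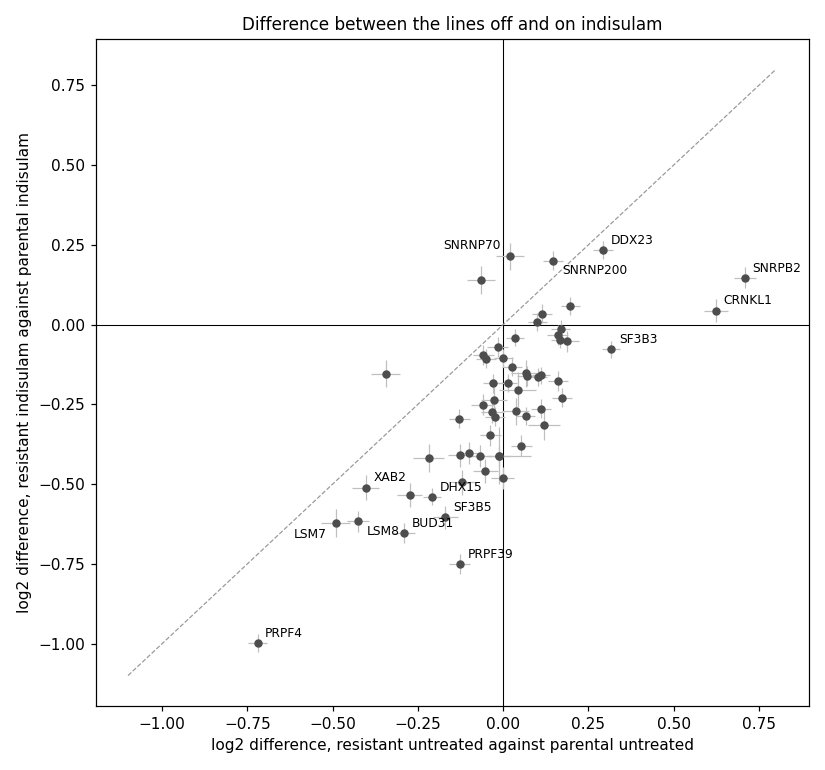
Log2 difference of resistant against parental cells off the drug (horizontal) and on it (vertical) for the 59 genes, with the SE of the fit; the dashed line marks equal differences. Most points lie below the line, and the median is -0.00 off and -0.23 on the drug.

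Genes near a member on the chromosome often differed between the lines in the same way. For each gene the median log2 difference of the other tested genes within 2 Mb was taken, a description added after the values had been seen. Off the drug PRPF4 (chr9:113275642-113294009 on GRCh38) was at -0.72 and its 36 neighbours had a median of -0.71, with 26 called lower and 7 higher. LSM7 (chr19:2321520-2328611) was at -0.49 and its 120 neighbours at -0.49, with 91 lower and 9 higher. SNRPB2 (chr20:16729961-16742564) was at 0.71 and its 18 neighbours at 0.64, of which 17 were higher and 0 lower, and CRNKL1, whose window overlaps that of SNRPB2, was at 0.62 with 18 neighbours at 0.61, of which 15 were higher and 0 lower. DDX23 (0.29) and BUD31 (-0.29) also lay at their neighbours' medians of 0.27 and -0.30.

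Other differences between the lines were larger in size than the neighbours' median. SF3B3 was at 0.32 with a median of 0.01 over 57 neighbours (9 lower, 20 higher), and LSM8 at -0.43 with -0.16 over only 8 (5 lower, 0 higher). On the drug PRPF39 was at -0.75 against -0.19 over 6 neighbours (4 lower, 0 higher). BUD31 was at -0.65 against -0.13 over 89 (38 lower, 20 higher), and PRPF4 at -0.998 against -0.63 (25 lower, 5 higher). Across the 59 genes, Spearman's rank correlation between a gene and its neighbours' median was 0.62 off and 0.55 on the drug, against 0.26 and 0.29 over 16380 tested genes. The points share libraries and some windows overlap. Gene copy number was not tested.

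**Figure D5:**
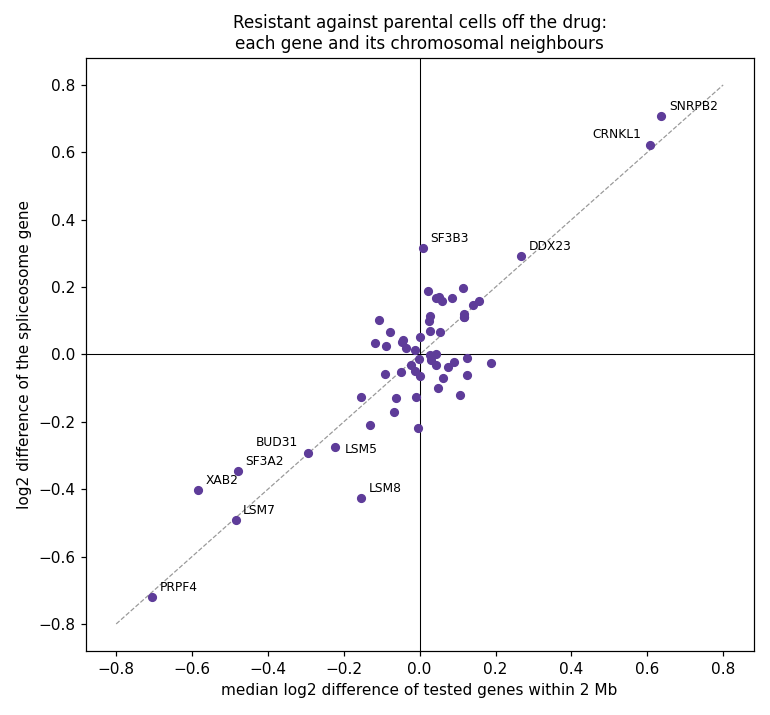
Log2 difference of resistant against parental cells off the drug for each of the 59 genes (vertical) and the median of the tested genes within 2 Mb (horizontal); the dashed line marks equality. PRPF4, LSM7, SNRPB2, CRNKL1, DDX23 and BUD31 lie close to the line, and SF3B3 and LSM8 lie off it.

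Sequence features of the transcripts were also set beside the changes. Across the 59 genes, Spearman's rank correlation of the parental response with GC content of the canonical transcript was -0.41, against -0.25 over 16599 tested genes, and that of the interaction with GC content was 0.40, against 0.24. Holders of the ETS octamer shown above had a median parental response of 0.23 (17 genes) and the other genes with a window 0.17 (35 genes), and their ranges of -0.11 to 0.38 and -0.24 to 0.51 overlapped. All of these values share the same 8 libraries, and no test was made on them.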

How the data were processed

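The authors prepared stranded libraries from polyadenylated RNA and deposited raw read counts per gene, 1 table per library. Their processing notes name HISAT2 2.2.1, Picard and HTSeq, and the genome was GRCh38. The counting annotation and strand setting were not given in the sources used here, so reads of overlapping genes may have been split or lost by rules unknown here. Each table lists 60675 genes and 9 lines of unassigned reads, which were left out of library sizes. Symbols came from GENCODE release 44, which matched 60419 identifiers and need not be the release used for counting, and the promoter sequences from the RefSeq table for GRCh38.p14.

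Counts were tested with edgeR 4.0.16 in R 4.3.3: filterByExpr (16661 genes), TMM scaling and a robust quasi-likelihood fit of the 4 group means to all 8 libraries. The drug was compared with no drug within each line, the lines with each other in both states, and the responses by an interaction term. The call was made at an adjusted p (Benjamini-Hochberg) under 0.05, and an SE is the log2 fold change divided by the root of F. The genes of the list and the other lists were chosen with earlier results of these data known. Library values were given for the 4 largest rises and 4 largest falls among called genes of each comparison (without overlap between groups, except for the interaction) and for SF3B1, SNRPB, SNRNP70, PRPF8, SNRNP200, EFTUD2, PRPF19 and LSM8, and other genes of the list were named by class. DESeq2 1.42.0, other scalings and filters, a GC and transcript length correction (mgcv 1.9.3, a curve per library), the replicate number as a block and each library left out in turn were alternatives. The neighbour, promoter and transcript feature descriptions were added after the data had been seen.

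Since the reads carry no molecular identifiers, depth bounds counting error only. Counts were simulated for 16248 genes in the parental comparison, with changes placed in only a few of them. Recovered were 38 of 67 changes of 0.2 log2 units (56.7%), 60 of 67 of 0.5 (89.6%) and 66 of 66 of 1, with 16 false calls. With so few changed genes the adjusted p is a stricter cut than in the data, where 58.2% of all tested genes were called. These rates therefore do not give the recovery for the listed genes. Libraries of a group differed by more than sampling noise (mean chi-square per gene 2.04 to 5.87) and were counted separately. Plots were made in Python 3.11.15 (matplotlib 3.10.9).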

Additional observations from a re-analysis of the deposited data

Results flagged for a closer look

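The response to the drug differed between the lines by the interaction test for 49 of the 59 genes (edgeR, adjusted p under 0.05), against 50.1% of all tested genes. Values are the resistant minus the parental log2 fold change, so a negative value means that the response was lower in resistant cells. The resistant cells were on the drug continuously or on a drug holiday, so line and treatment scheme cannot be told apart in these values. In SF3A the difference was -0.27 for SF3A1, 0.19 for SF3A2 and -0.34 for SF3A3. In SF3B the difference was -0.20 for SF3B1, -0.21 for SF3B2, -0.39 for SF3B3, -0.43 for SF3B5, -0.24 for SF3B6 and -0.48 for PHF5A. In the Sm ring the difference was -0.24 for SNRPB, -0.34 for SNRPD1, -0.37 for SNRPD2, -0.30 for SNRPD3, -0.43 for SNRPE, -0.41 for SNRPF and -0.17 for SNRPG. Among U1 proteins the difference was -0.11 for SNRPA, -0.35 for SNRPC, 0.19 for SNRNP70 and -0.62 for PRPF39. Among U2 proteins the difference was -0.27 for SNRPA1 and -0.56 for SNRPB2. In the LSM ring the difference was -0.23 for LSM2, -0.28 for LSM3, -0.26 for LSM5, -0.44 for LSM6 and -0.19 for LSM8. Among U5 proteins the difference was -0.19 for PRPF8, -0.18 for EFTUD2, -0.14 for PRPF6 and -0.21 for SNRNP40. Among U4/U6 and tri-snRNP proteins the difference was -0.28 for PRPF4, -0.22 for SNRNP27, -0.31 for USP39 and -0.27 for PRPF38A. Among U11/U12 proteins the difference was -0.31 for SNRNP25, -0.25 for SNRNP35 and 0.20 for SNRNP48. In the PRP19 group the difference was -0.40 for PRPF19, -0.37 for CDC5L, -0.58 for CRNKL1, -0.20 for SYF2, -0.16 for AQR, -0.36 for BUD31 and -0.40 for CWC22. Among DEAH helicases and step 2 factors the difference was -0.15 for DHX16, -0.19 for DHX8, -0.33 for DHX15 and -0.40 for PRPF18. The signs of SNRNP70, SF3A2, LSM8 and AQR turned after correcting for GC content and length, and SNRPA turned with library totals alone.

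In a pair of library measures the lines changed with the drug in opposite ways, with both libraries of a group on the same side. The share of reads outside genes fell with the drug in parental libraries and rose in resistant ones, a difference of the changes of 2.38 percentage points, and the share of mitochondrial reads did likewise, by 2.30 points. These differences were not tested, and their part in the values of the 59 genes was not tested.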

How the results depend on the processing

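Against 0.5 log2 units (glmTreat), 0 of the 59 genes were called in the parental and 0 in the resistant response, where the plain edgeR test called 50 and 37 (51 and 40 at an unadjusted p under 0.05), 3 between the lines off the drug, 6 on it and 1 in the interaction. Leaving out each library in turn left 1 library in a group. The median log2 fold change of the 59 genes was then 0.16 to 0.20 in the parental and -0.066 to -0.046 in the resistant response. It was -0.020 to 0.026 off the drug, -0.23 to -0.185 on it and -0.25 to -0.19 in the interaction. Calls of single genes changed in these fits, as given above for SNRPB, SF3A2 and DDX46. Same-numbered libraries did not deviate together (correlations -0.058 to 0.027). This shows no shared deviation, and it cannot show whether same-numbered libraries were handled together. With the replicate number as a block 49, 37, 33, 50 and 49 genes were called in the same order.

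Among the genes with library values chosen by rule, signs turned after correcting for GC content and length for SF3A2 (parental 0.0478, interaction -0.091), LSM8 (-0.0003 and 0.0097), SNRNP70 (off the drug -0.0346, on it -0.0729, interaction -0.0383) and, off the drug, SF3B1 (-0.0091), PRPF8 (-0.0221) and SNRNP200 (-0.0347). With the block added, interaction values were -0.0915 for SF3A2 and 0.0106 for LSM8, SNRNP70 on the drug was -0.073, PRPF8 off it -0.022, and the others were as above. With library totals alone the signs turned for SNRNP70 (resistant 0.0027, off -0.0085), SF3B1 off the drug (-0.0144) and PRPF8 (0.0551) and EFTUD2 (0.0748) on it, with a mean CPM of at least 1 for PRPF8 (0.0464) and EFTUD2 (0.0661) on it, and without a filter for EFTUD2 on it (0.0118). Leaving out 1 library turned values that were not called: SNRNP70 in resistant cells ranged from -0.106 to 0.0127 and off the drug from -0.0358 to 0.0831, SF3B1 off it from -0.0014 to 0.0337, and on the drug PRPF8 from -0.0576 to 0.0344 and EFTUD2 from -0.0225 to 0.0271. The cause was not tested. Over all 59 genes, 19 of 220 calls, from 14 genes, turned sign under some alternative, with GC and length also SF3A1 (-0.037), SNRPD2 (0.0465) and SNRPG (0.197) off the drug, SNRPG (0.0104), SNRNP27 (0.128), PRPF38A (0.0182) and AQR (0.032) on it and AQR in the interaction (0.034), and with library totals alone SF3B3 (0.00939) and PRPF3 (0.0165) on the drug and SNRPA in the interaction (0.00983). Among 72 values of named genes, 48 kept their direction and side of the threshold under every alternative. PRPF18 had the lowest counts and the widest errors.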

Other observations

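Splicing genes outside the 59 were counted in the same fit, in which 31.6% of all tested genes rose and 26.6% fell in parental cells and 24.9% rose and 25.8% fell in resistant cells (57.7%, 20.9%, 27.1% and 40.3% of the 2770 within the level range of the 59 genes). Of 65 tested genes of other spliceosome components, 45 rose and 11 fell in parental cells and 12 rose and 18 fell in resistant cells, with medians of 0.19 and -0.01. SMNDC1, which encodes the branch-point factor SPF30, rose in both lines (0.54 and 0.26), and the U1-associated gene LUC7L rose in parental cells (0.51). The largest parental changes of these genes were falls, in DDX39B (-1.02) and PRPF40B (-0.71). GCFC2 and the helicase gene DHX35 fell in resistant cells (-0.64 and -0.49).

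Of 43 genes of snRNP assembly and snRNA maturation, 26 rose and 10 fell in parental cells and 8 rose and 21 fell in resistant cells. SNAPC3, a subunit of the complex that drives snRNA transcription, rose in both lines (0.70 and 0.64), while NCBP1, the large cap-binding subunit, fell in both (-0.35 and -0.48). On the drug 34 of these 43 genes were lower in resistant than in parental cells and 3 were higher, against 34.9% and 34.6% of all tested genes.

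Of 11 tested genes of the minor spliceosome, 4 rose and 2 fell in parental cells, and 1 rose and 1 fell in resistant cells. CENATAC, which acts on minor introns, fell in parental cells (-1.01), and the largest rises there were PDCD7 and ZCRB1 (0.24 and 0.23). Of 7 LSM genes outside the U6 ring, 4 rose in parental cells and 2 in resistant cells, with LSM1 at 0.34 and LSM14A at 0.22 and 0.13. These lists were chosen with earlier results of these data known.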
